A study of Drosophila melanogaster with 72 samples.

Results

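Heads of male fruit flies frozen by day were compared with heads frozen by night at 5 weeks of age. The members were 9 libraries, of 16 labelled head at that age and of 72 in the whole series. The 3 day libraries were ALF ZT03, ALF ZT09 and TRF ZT03, and the 6 night libraries were ZT15, ZT18 and ZT21 of each feeding type. ALF stands for flies fed ad libitum and TRF for time-restricted feeding, in which the flies spent part of the time on plain agar with water in place of cornmeal molasses food. ZT, zeitgeber time, counts hours from lights-on at ZT00, and lights-off falls at ZT12. All flies were males of Oregon R, a wild-type laboratory strain, and no mutant allele, transgene or drug was used in any group, so the libraries compared differed by label in time of day and in feeding type. Under TRF, day and night libraries may also differ in access to food, which this design cannot tell apart from time of day. The series as a whole profiled head, heart and the remaining body of such flies at 3 ages by RNA sequencing of polyadenylated RNA. Each time and feeding type had 1 library, the number of heads in a library is not given in the sources used here, and libraries of different ZT served as the samples of day and of night. The p-values below therefore measure the spread among times and feeding types together, which may in part be technical.

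Day libraries were chosen by their label and by ninaE, the gene of the eye's main rhodopsin, which had to exceed 1000 FPKM (reads per kilobase of transcript, scaled to the size of the library). In the 9 libraries ninaE lay between 9856 and 24226 FPKM. The day libraries labelled head at ALF ZT06, TRF ZT06 and TRF ZT09 were not members: ninaE was 0.430, 0.443 and 0.248 FPKM there, while the seminal fluid gene Acp36DE stood at 69.7 to 101 FPKM. In the 9 libraries Acp36DE was at most 0.059 FPKM, and 8 testis markers summed to 0.138 to 1.62 FPKM. The 10 photoreceptor markers summed to between 27235 and 46067 FPKM, a sum that includes ninaE, which the choice of day libraries used. Depth, recovered from the steps of the low FPKM values and given in M (mega) reads, was 18.6, 2.06 and 7.29 M reads in ALF ZT03, ALF ZT09 and TRF ZT03. At night it was 2.10, 11.9 and 18.0 M in ALF ZT15, ZT18 and ZT21, and 14.3, 15.5 and 12.8 M in the TRF libraries of the same times. ALF ZT09 and ALF ZT15 were the shallow libraries, and their values carry more counting error than the rest.

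The fly's daily clock is a loop of transcription. The activators Clk and cyc switch on per and tim, whose proteins accumulate in the dark, enter the nucleus and hold Clk and cyc back until light destroys Tim. An interlocked loop runs through vri, a repressor of Clk, and Pdp1, an activator of it, and through cry, whose protein is the blue-light receptor that marks Tim for destruction. In heads much of this RNA comes from photoreceptors and glia as well as from clock neurons, and the loop drives output genes of metabolism, detoxification and vision. In a whole head, a change in the number of cells of a type and a change in RNA per cell cannot be told apart.

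Heads of ZT18 and ZT21 carried several times more per, tim, vri and Pdp1 RNA than day heads on average and far less Clk. Heads of ZT15 lay nearer the day mean for each of these genes in both feeding types, except for Clk in ALF. Outside the clock, night heads had more RNA of fatty acid oxidation enzymes, of the insulin-responsive glucosidase gene tobi and of several odorant-binding proteins. They had less RNA of the tyrosine breakdown enzymes CG11796, hgo and GstZ2 on average. For CG11796 and hgo this rested on the ZT03 libraries more than on ALF ZT09, which lay within the night range. None of these differences passed the test over the 9 libraries. The test was limma on log2(FPKM + 1) with feeding as a covariate, and differences are given as night minus day on that scale, which understates the change of low genes. With Benjamini-Hochberg adjustment, 0 of 9918 genes tested (0%) were higher and 0 (0%) were lower at an adjusted p of 0.05, and the smallest adjusted p was 0.897. At an unadjusted p under 0.05 there were 203 genes higher at night (2.05%) and 126 lower (1.27%). In 154 genes every night library lay above every day library (1.55%), and in 168 every night library lay below (1.69%). A count test, limma-voom on whole reads worked back from the FPKM steps, also called 0 genes, with 337 at an unadjusted p under 0.05.

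Without ALF ZT15 the limma count stayed at 0 of 9915 genes higher (0%) and 0 lower (0%), with 448 higher (4.52%) and 327 lower (3.3%) at an unadjusted p under 0.05 and a smallest adjusted p of 0.115. The groups then did not overlap in 246 genes higher at night (2.48%) and 262 lower (2.64%). With both ZT15 libraries left out, a fit added after the data were seen, 11 of 9914 genes rose at night (0.111%) and 2 fell (0.0202%), with adjusted p between 0.0157 and 0.0463. The groups of 3 and 4 libraries did not overlap in 595 genes higher at night (6%) and 507 lower (5.11%). That count of 13 turned on single libraries: it was 0 without TRF ZT03, 0 without TRF ZT21, 1 without ALF ZT18, 2 without ALF ZT03 and 66 without ALF ZT09. The 11 that rose were per, vri, Slob, CG14275, Ubpy, CG31100, Obp19a, Obp69a, Obp83a, Obp83b and a5, and the 2 that fell were CG42329 and l(2)efl. The clock genes' own levels at ZT15 prompted that fit. It favours any gene with day-like levels at ZT15, whether in the clock lists or not. All 13 calls in it are therefore a description and lend no support of their own.

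ALF ZT15 stood apart in how its reads were spread over short and long transcripts. Against the mean of the other 8 libraries, its median difference in log2(FPKM + 1) was 1.03 for transcripts under 1000 bases and 0.08 from 1000 to under 2000 bases. It was -0.78 from 2000 to under 4000 bases and -1.32 at 4000 bases or more. In the other 8 libraries these medians stayed between -0.19 and 0.40. The balance of the tim transcripts also stood apart in ALF ZT15, though there it was the shorter of the pair that was low. Its 3549-base transcript NM_001144309 stood there at 0.068 of the FPKM of its 5001-base transcript NM_001144308, and at 0.570 to 0.804 in the other 12 head libraries with eye transcripts. Markers of neurons with long transcripts were low there as well, with n-syb, a protein of synaptic vesicles, at 58.4 FPKM beside 604 to 782 FPKM in the other 8 and the neuronal RNA-binding protein gene elav at 0.637 FPKM beside 5.20 to 19.2. The 7 neuronal markers summed to 113 FPKM in ALF ZT15 and to between 833 and 1071 FPKM in the other 8. TRF ZT15 showed no such tilt, with medians of -0.05 to 0.09 over the length classes.

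**Figure D1:**
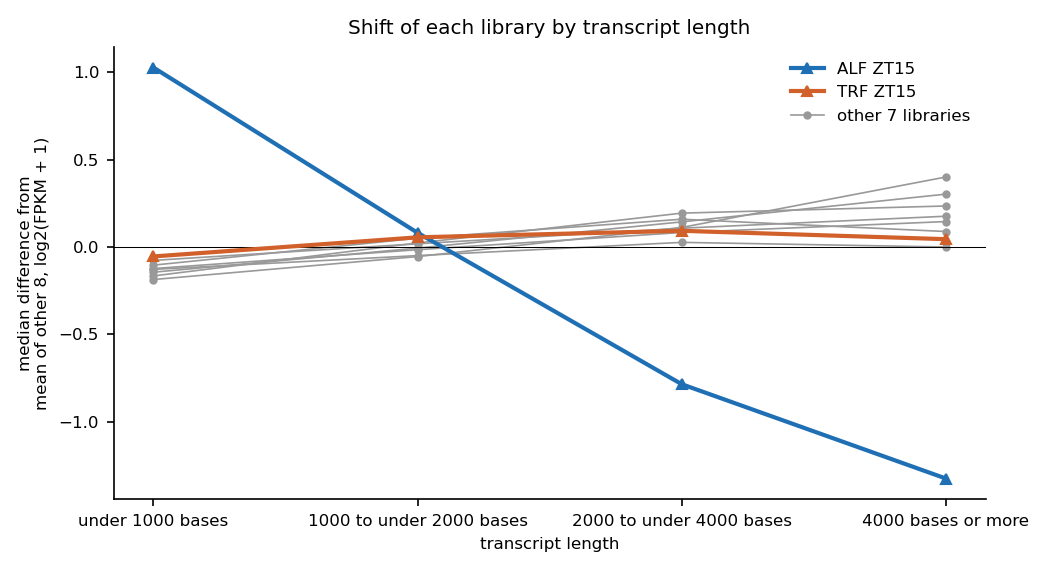
Median difference of each library from the mean of the other 8, in log2(FPKM + 1), by transcript length class for the 9 head libraries; each line is a library. ALF ZT15 runs from 1.03 in the shortest class to -1.32 in the longest, while the other lines stay between -0.19 and 0.40.

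Among the repressors of the loop, per (CG2647, NM_080317, chromosome X, 2579613 to 2586813 in dm3 as the deposited table gives it) was at 19.5, 22.4 and 27.9 FPKM in ALF ZT03, ALF ZT09 and TRF ZT03. The night libraries ALF ZT15, ZT18 and ZT21 had 21.4, 114 and 77.2 FPKM, and their TRF counterparts 11.1, 74.4 and 115 FPKM. The 4 libraries of ZT18 and ZT21 lay above every day library, ALF ZT15 lay within the day range and TRF ZT15 below it, so the groups overlapped. The day mean was 23.3 ± 4.24 FPKM (SD, n = 3) and the night mean 68.9 ± 44.4 FPKM (SD, n = 6), a difference of 1.15 (SE 0.76, limma adjusted p = 0.897). It was 1.51 (limma adjusted p = 0.672) without ALF ZT15 and 1.95 without both ZT15 libraries.

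The partner of per, tim (CG3234, NM_001144308, chromosome 2L, 3493986 to 3508119), was at 46.5, 24.4 and 106 FPKM by day. It was at 62.8, 314 and 279 FPKM in the ALF night libraries and at 10.2, 209 and 298 FPKM in the TRF ones. Again ZT18 and ZT21 lay above every day library, while TRF ZT15 was the lowest of all 9. The difference was 1.35 (SE 1.11, limma adjusted p = 0.897), 1.65 without ALF ZT15 and 2.35 without both. The transcript of tim used here is long, and ALF ZT15 is the library in which long transcripts stood low.

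The activator Clk ran the other way. It was at 12.0, 16.9 and 12.4 FPKM by day, at 0, 1.42 and 3.82 FPKM in ALF at ZT15, ZT18 and ZT21, and at 14.3, 3.74 and 1.53 FPKM in TRF. Every night library but TRF ZT15 lay below the day range, and TRF ZT15 lay within it. The difference was -2.17 (SE 0.67, limma adjusted p = 0.897), with -1.76 without ALF ZT15 and -2.07 without both ZT15 libraries. Its partner cyc, which is known to vary little over the day, was between 22.8 and 27.4 FPKM by day and between 21.5 and 32.5 FPKM at night, a difference of 0.12 (SE 0.18).

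In the interlocked loop, vri (CG14029) was at 31.4, 50.5 and 35.5 FPKM by day. The ALF night libraries had 51.7, 228 and 133 FPKM of it and the TRF ones 20.5, 194 and 215 FPKM. ZT18 and ZT21 again stood above all day libraries, and ALF ZT15 stood just above the highest of them. Its difference was 1.48 (SE 0.77), 1.801 without ALF ZT15 and 2.25 without both. Pdp1 had the same shape at a lower amplitude, with 55.3 to 66.2 FPKM by day, 69.9, 204 and 143 FPKM in ALF and 39.6, 137 and 196 FPKM in TRF, and a difference of 0.95 (SE 0.52).

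The photoreceptor protein gene cry was high by day, at 205, 231 and 138 FPKM. ALF night heads had 176, 63.8 and 61.8 FPKM and TRF ones 191, 125 and 65.2 FPKM, a difference of -0.89 (SE 0.45). Both ZT15 libraries lay within the day range and the other 4 below it. The repressor cwo was at 12.9 to 18.5 FPKM by day and at 20.4 to 30.0 FPKM at ZT18 and ZT21, but at 7.20 FPKM in ALF ZT15 and 13.6 FPKM in TRF ZT15, so its difference over the 9 libraries was only 0.10 (SE 0.39).

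Of the 8 loop genes, 0 were called in either direction over the 9 libraries and 6 had a difference above 0, beside 43.6% of all genes tested. With both ZT15 libraries left out, all 8 had groups that did not overlap, 6 higher and 2 lower, beside 6% and 5.11% of all genes. The levels of these same genes at ZT15 prompted that fit, so this count is a description. TRF ZT15 lay nearer the day mean than the mean of ZT18 and ZT21 for 8 of 8 genes, and ALF ZT15 for 7 of 8, the exception being Clk. The TRF ZT15 library had 14.3 M reads and no length tilt. At the time points outside the comparison, ZT00 and ZT12, ALF heads had 32.6 and 19.1 FPKM of per and TRF heads 88.7 and 19.1 FPKM, while tim was at 118 and 22.7 FPKM under ALF and 245 and 43.0 FPKM under TRF. By label, per was high at ZT18 and ZT21, and at ZT00 in TRF, while ZT12 and ZT15 held levels near or below those of the day. No time within a feeding type had a repeat library, so these levels do not fix the phase of per. ALF ZT15 was also shallow and low in long transcripts, and the per transcript is long. Whether the labelled times of the ZT15 libraries are right was not tested. The 11 kinases, phosphatases and ubiquitin ligases that act on clock proteins had a median difference of -0.28 over the 9 libraries, and 0.10 without ALF ZT15, with 0 called in both fits.

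**Figure D2:**
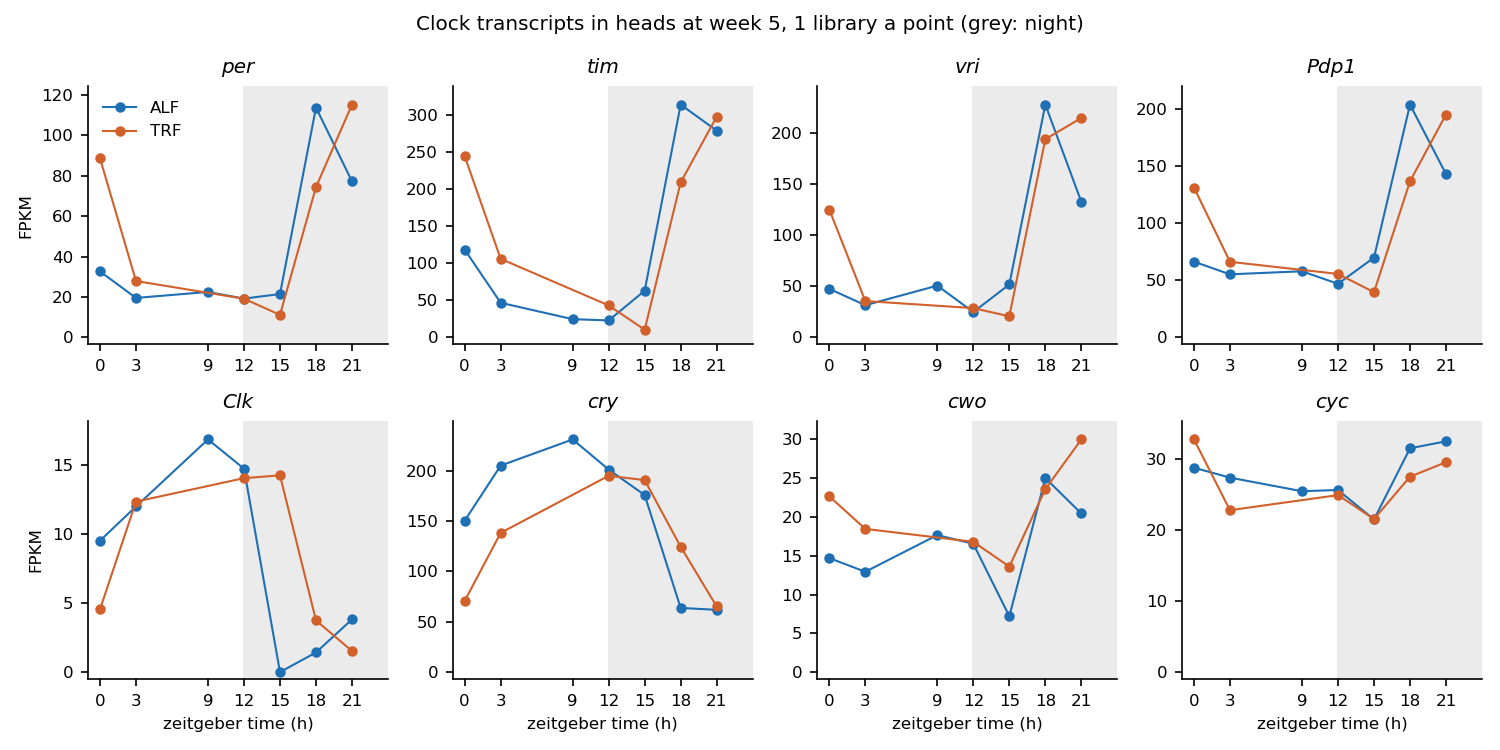
FPKM of 8 clock genes against zeitgeber time in hours for the 13 head libraries with eye transcripts at week 5 (blue, ALF; orange, TRF; grey, night; 1 library a point, so there is no error bar). The 4 points at ZT18 and ZT21 stand above all day points for per, tim, vri, Pdp1, cwo and cyc and below them for Clk and cry, while ZT15 lies nearer the day level in all but the ALF point of Clk.

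Clock output genes divided by direction. Slob, which encodes a protein that binds the Slowpoke potassium channel, was at 122, 128 and 135 FPKM by day. ALF night heads had 159, 260 and 216 FPKM and TRF ones 97.0, 232 and 244 FPKM. TRF ZT15 was the only night library below the day range, and the difference was 0.60 (SE 0.32, limma adjusted p = 0.897), 0.69 without ALF ZT15 and 0.88 without both ZT15 libraries, where it passed. Ubpy, which encodes a deubiquitinating enzyme and is not in the clock lists, had nearly the same course: 34.0 to 37.5 FPKM by day, 61.6, 98.8 and 76.7 FPKM in ALF and 22.5, 98.7 and 101 FPKM in TRF. CG14275 was at 54.8 to 66.2 FPKM by day and at 110.5 to 138 FPKM in the 4 libraries of ZT18 and ZT21, with 314 FPKM in ALF ZT15 and 42.6 FPKM in TRF ZT15.

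Other outputs were lower at night. CG42329 was at 34.5, 23.6 and 20.4 FPKM by day. The ALF night libraries had 1.16, 2.84 and 5.08 FPKM, and the TRF ones 24.5 FPKM at ZT15 and 1.47 and 2.06 FPKM at ZT18 and ZT21. Only TRF ZT15 overlapped the day range. The difference was -2.57 (SE 0.74, limma adjusted p = 0.897) over the 9 libraries, -2.30 without ALF ZT15 and -2.75 (SE 0.22, limma adjusted p = 0.0160) without both ZT15 libraries. Ugt35b, a UDP-glycosyltransferase gene now named Ugt35B1, was between 51.2 and 101 FPKM by day and between 12.5 and 31.8 FPKM at ZT18 and ZT21, with 30.3 FPKM in ALF ZT15 and 65.4 FPKM in TRF ZT15. CG10513 had 29.4 to 53.1 FPKM by day and a median of 6.10 FPKM at night, with TRF ZT15 again within the day range at 39.7 FPKM. Pdh, a retinol dehydrogenase gene, was at 1049 to 1515 FPKM by day and at 455 to 1017 FPKM at ZT18 and ZT21, with 803 FPKM in ALF ZT15 and 1438 FPKM, within the day range, in TRF ZT15. Its difference over the 9 libraries was -0.66 (SE 0.39).

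The other outputs had overlapping groups and no difference that passed. The feeding-related gene to was between 22.1 and 55.7 FPKM by day and between 17.2 and 83.8 FPKM at night, a difference of 0.11 (SE 0.46). The P450 gene Cyp4d21 differed by 0.32 (SE 0.44), with 48.9 to 195 FPKM by day and 86.9 to 216 FPKM at night. Thor, the insulin-responsive inhibitor of translation initiation, was at 617, 126 and 375 FPKM by day and at 121 to 222 FPKM at night, and its difference of -0.91 (SE 0.47) rested on the ZT03 libraries, since ALF ZT09 lay within the night range. Pdf, the neuropeptide of the ventral clock neurons, was at 162 to 201 FPKM by day and at 130.2 to 177 FPKM at night save for 579 FPKM in ALF ZT15. Its difference of 0.18 turned to -0.21 without that library. The Pdf transcript has 677 bases and that of Dh31 603 bases, yet Dh31 was low in ALF ZT15, at 31.6 FPKM. The cause of either value was not tested. Dh31 and Dh44, neuropeptides released downstream of the clock, differed by -0.40 and -0.46 over the 9 libraries and by -0.08 and -0.01 without ALF ZT15. Over the 18 output genes tested, 8 were higher and 10 lower at night, beside 43.6% of all genes higher. At an unadjusted p under 0.05, 1 was higher and 3 were lower, beside 2.05% and 1.27% of all genes.

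Fatty acid oxidation enzymes were on balance higher at night, and ALF ZT15 did not decide that. Of 14 tested members 13 had a difference above 0, beside 43.6% of all genes, and their median was 0.45 beside -0.05 over all genes. At an unadjusted p under 0.05, 7 were higher, beside 2.05% of all genes, with 0 called. The median was 0.48 without ALF ZT15, with 13 of 14 above 0 beside 53.7% of all genes. It was 0.46 without both ZT15 libraries, with 14 of 14 above 0 beside 52.8% of all genes and 8 at an unadjusted p under 0.05 beside 6.32%. The mitochondrial thiolase gene yip2 was at 154, 148 and 117 FPKM by day, and at night at 265, 327 and 359 FPKM in ALF and 153, 182 and 228 FPKM in TRF. TRF ZT15 fell just short of the highest day library and the other 5 night libraries exceeded it. The day mean was 140 ± 19.8 FPKM (SD, n = 3) and the night mean 252 ± 80.6 FPKM (SD, n = 6), a difference of 0.90 (SE 0.19, limma adjusted p = 0.897), and 0.95 (limma adjusted p = 0.279) without ALF ZT15. The subunits of the mitochondrial trifunctional protein followed, Thiolase (Mtpbeta) with a difference of 0.61 (SE 0.15) and Mtpalpha with 0.67. Arc42, an acyl-CoA dehydrogenase gene, was at 33.2 to 45.6 FPKM by day and 43.6 to 69.9 FPKM at night, a difference of 0.56 (SE 0.14). CG12262 and the carnitine carrier gene colt differed by 0.76 and 0.48. The carnitine palmitoyltransferase gene whd, which admits fatty acids to the mitochondrion, differed by 0.16, and CG9547 by -0.10.

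Enzymes that break down tyrosine were lower at night along part of the pathway. At its start, the tyrosine aminotransferase gene CG1461 was at 283 to 475 FPKM by day and 228 to 316 FPKM at night, a difference of -0.30. CG11796, the next enzyme, now named Hpd, was at 937, 265 and 533 FPKM by day. The night libraries held 157, 163 and 178 FPKM under ALF and 188, 303 and 158 FPKM under TRF. Only ALF ZT09 and TRF ZT18 overlapped, and the difference was -1.50 (SE 0.38, limma adjusted p = 0.897), with -1.46 without ALF ZT15.

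The third enzyme, homogentisate dioxygenase (hgo), had 109, 34.5 and 39.9 FPKM by day and a night range of 24.1 to 34.8 FPKM, a difference of -0.84 (SE 0.34). Its ALF ZT09 value lay within that night range. GstZ2, the zeta-class glutathione transferase that isomerises maleylacetoacetate, was at 212, 105 and 99.0 FPKM by day. By night it stood at 32.0, 35.3 and 47.3 FPKM under ALF and at 92.0, 39.9 and 30.8 FPKM under TRF. All 6 night libraries lay below all 3 day libraries, TRF ZT15 by the least. Its difference was -1.60 (SE 0.40, limma adjusted p = 0.897), -1.49 without ALF ZT15 and -1.70 without both ZT15 libraries. The last enzyme, fumarylacetoacetase (Faa), was at 23.7 to 50.5 FPKM by day and 21.0 to 35.4 FPKM at night, a difference of -0.08. In the wider list of amino acid and methyl-group metabolism, 12 of 14 tested members had a difference below 0, beside 5593 of all 9918 genes, with a median of -0.28. At an unadjusted p under 0.05, 3 were lower, beside 1.27% of all genes: GstZ2, hgo and the glycine decarboxylase gene CG3999. For CG3999 too, ALF ZT09 lay within the night range. Without both ZT15 libraries 12 of 14 were again below 0, beside 4677 of 9914 genes. Then 1 was lower at an unadjusted p under 0.05, beside 4.66% of all genes. The lysine-degrading enzyme gene LKR, outside that list, was at 20.1 to 35.1 FPKM by day and 10.3 to 17.6 FPKM at night, with no overlap and a difference of -0.80 (SE 0.21).

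**Figure D3:**
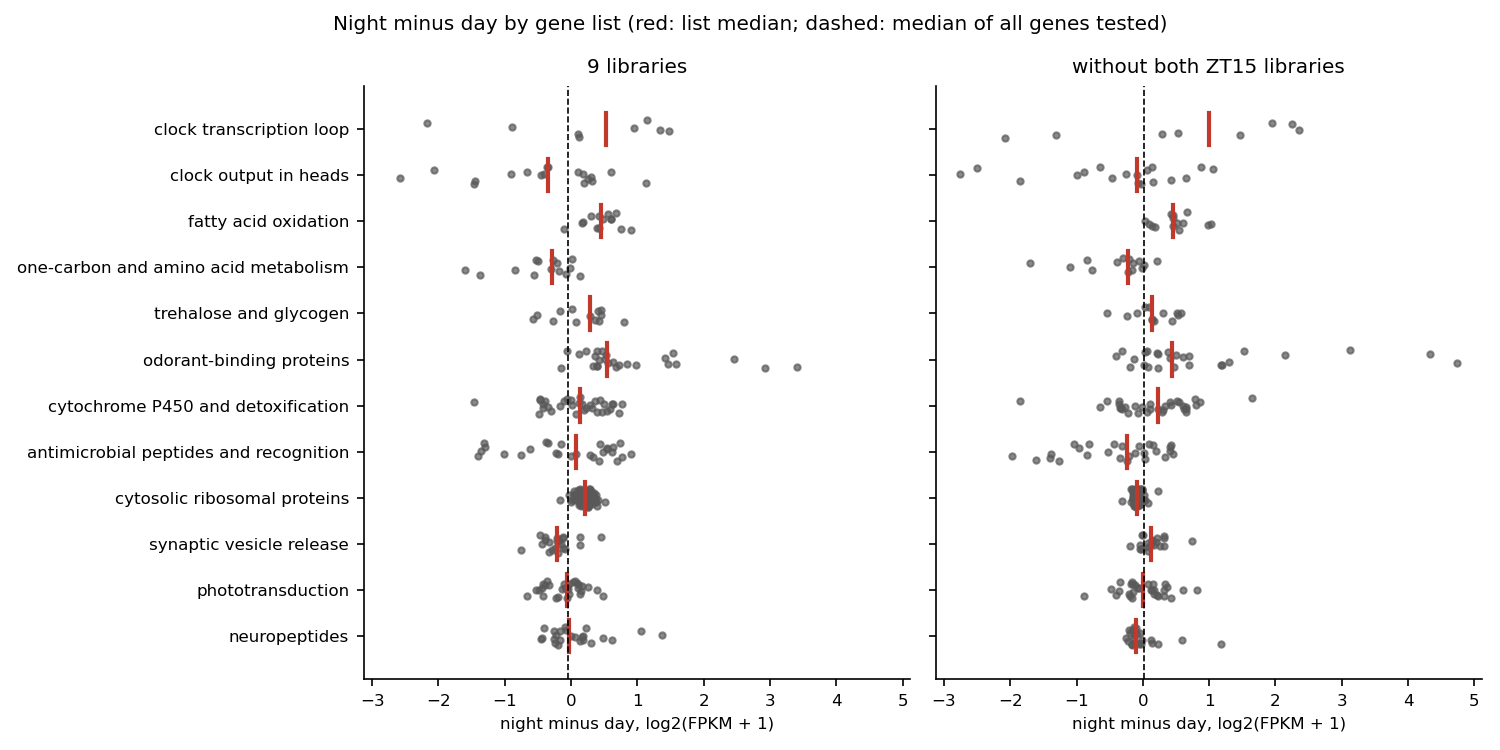
Night minus day differences in log2(FPKM + 1) of the tested members of 12 gene lists, over the 9 libraries and without both ZT15 libraries; each grey point is a gene, red bars are list medians and the dashed line is the median of all genes tested. The median of fatty acid oxidation stays at 0.45 and 0.46, that of cytosolic ribosomal proteins moves from 0.20 to -0.10.

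Sugar genes differed by less. The trehalase gene Treh was at 276, 217 and 254 FPKM by day and at 151 to 216 FPKM at night. No night library reached the day range, TRF ZT15 lying just under ALF ZT09, and the difference was -0.51 (SE 0.18). Tps1, which makes trehalose, was at 339, 339 and 364 FPKM by day and at 410 to 620 FPKM at night, again with no overlap and a difference of 0.43 (SE 0.19). Of 13 members of the trehalose and glycogen list, 9 were higher at night, beside 43.6% of all genes, with a median of 0.29 and 0 called. The median was 0.31 without ALF ZT15 and 0.14 without both ZT15 libraries.

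The gene with the largest night excess among those of smallest p was tobi, which encodes a glucosidase named as a target of brain insulin. It was at 11.5, 43.9 and 7.19 FPKM by day. At night it was at 160.0, 204 and 211 FPKM in ALF, and in TRF at 17.5 FPKM at ZT15 and 91.0 and 107 FPKM at ZT18 and ZT21. TRF ZT15 lay within the day range and the other 5 night libraries above it. The difference was 2.93 (SE 0.60, limma adjusted p = 0.897) and 2.99 (limma adjusted p = 0.365) without ALF ZT15. Pepck (now Pepck1), the entry enzyme of glucose synthesis, had overlapping groups, 216 to 735 FPKM by day and 418 to 2048 FPKM at night.

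By the rule for genes with no call, the 10 with the smallest unadjusted p in each direction are given here as values that did not pass. In 6 of the 10 higher at night the groups did not overlap: CG15414, Cyp4ac2, Obp19c, CG16898, yellow-f2 and CG5840. CG15414 was at 0.785 to 1.04 FPKM by day and 2.38 to 4.22 FPKM at night, a difference of 1.10 (SE 0.19). In the deposited table it spans 3480755 to 3491071 of chromosome 2L, between Thor, which ends at 3479612, and tim, which starts at 3493986. The P450 gene Cyp4ac2 was at 7.02, 9.97 and 8.14 FPKM by day and at a median of 20.2 FPKM at night, with 14.8 FPKM in TRF ZT18 as the lowest, a difference of 1.18 (SE 0.21). Here the ZT15 libraries stood with the rest of the night, ALF ZT15 at 23.2 FPKM and TRF ZT15 at 26.5 FPKM.

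The odorant-binding protein gene Obp19c was at 8.51, 7.97 and 8.03 FPKM by day and at 12.3 to 16.0 FPKM at night, a difference of 0.71 (SE 0.14). The gene yellow-f2, which encodes a dopachrome-converting enzyme of melanin synthesis, was at 42.5, 42.3 and 47.4 FPKM by day and at 66.1 to 81.8 FPKM at night, with 81.8 FPKM in ALF ZT15 and 69.3 FPKM in TRF ZT15. Its difference was 0.71 (SE 0.14, limma adjusted p = 0.897) and 0.67 (limma adjusted p = 0.206) without ALF ZT15. CG5840, a pyrroline-5-carboxylate reductase gene of proline synthesis now named P5cr-2, was at 58.6 to 77.1 FPKM by day and 96.1 to 154 FPKM at night, a difference of 0.79 (SE 0.16). CG16898 differed by 1.63 (SE 0.32) and the esterase gene alpha-Est10 by 0.91 (SE 0.19).

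Among the 10 lower at night, 4 had groups that did not overlap: GstZ2 and LKR, given above, with Tg and SPR. Tg, the transglutaminase that cross-links proteins in clotting hemolymph, was at 26.9 to 31.6 FPKM by day and at 12.5 to 19.7 FPKM at night, a difference of -0.69 (SE 0.18). SPR, the receptor for sex peptide and for the neuropeptide Mip, was at 21.5, 20.2 and 16.5 FPKM by day and at 5.24 to 16.4 FPKM at night, a difference of -1.05 (SE 0.29), with TRF ZT15 the highest night library. The small heat shock protein gene l(2)efl was at 155, 209 and 565 FPKM by day and 59.6 to 226 FPKM at night. Its raw ranges overlapped because TRF libraries were higher than ALF ones at both phases, and with feeding as a covariate the difference was -1.32 (SE 0.24, limma adjusted p = 0.897), and -1.50 (SE 0.17, limma adjusted p = 0.0463) without both ZT15 libraries.

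The immune genes Rel and pirk, both among the 10 of smallest p lower at night, were highest in TRF ZT03. Rel, the NF-kB factor of the Imd pathway against Gram-negative bacteria, was at 77.7, 49.4 and 184 FPKM in ALF ZT03, ALF ZT09 and TRF ZT03. Night levels were 36.5 to 41.3 FPKM under ALF and 66.6 to 94.8 FPKM under TRF. The difference was -0.89 (SE 0.22). Its pathway inhibitor pirk was at 13.1, 8.75 and 30.5 FPKM by day and at 2.09 to 17.1 FPKM at night. The antibacterial peptide gene AttD, an example from the immune list and not of that set, stood at 30.3 FPKM in TRF ZT03, 3.94 FPKM in ALF ZT09 and 0.073 FPKM in ALF ZT03. AttA, AttC, DptB, Dro and CecA1 were likewise highest in TRF ZT03, while Def and IM1 were not. AttA was at 2874 FPKM there, at 20.9 and 55.9 FPKM in ALF ZT03 and ALF ZT09, and at most at 1134 FPKM at night. Over 27 tested immune genes 14 were higher and 13 lower at night, beside 43.6% of all genes higher, with 0 called and a median of 0.08. The balance depended on ALF ZT15: without it 9 were higher and 18 lower with a median of -0.19, beside 53.7% of all genes higher. Without both ZT15 libraries 10 were higher and 17 lower with a median of -0.23, beside 52.8% of all genes higher. The part that TRF ZT03, the 1 TRF day library, plays in these balances and in the values of Rel and pirk was not tested.

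**Figure D4:**
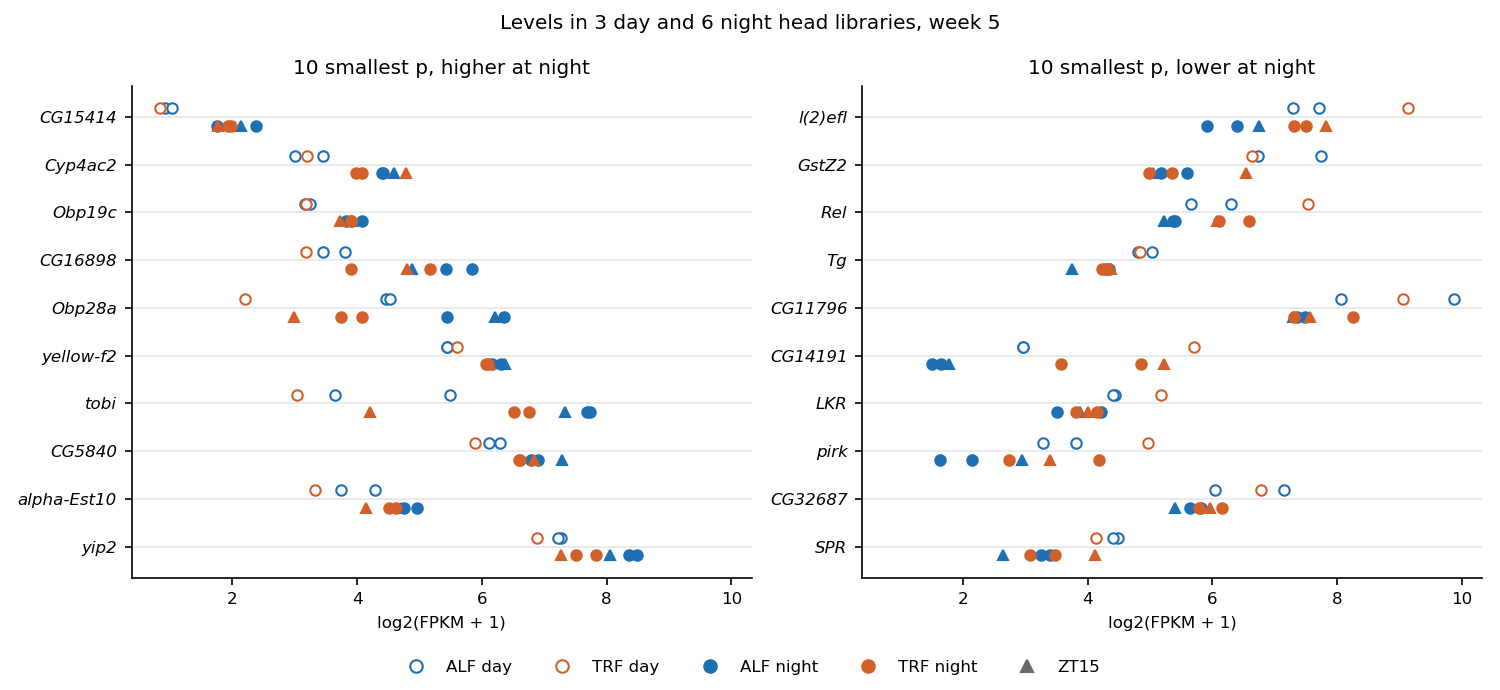
log2(FPKM + 1) of the 10 genes with the smallest unadjusted p in each direction in the 9 head libraries (open, day; filled, night; triangles, ZT15; blue, ALF; orange, TRF; 1 library a point). Day and night points do not overlap in 6 genes of the higher panel and 4 of the lower, and the ZT15 triangles lie with the other night points for Cyp4ac2 and yellow-f2 but with the day points for TRF in tobi.

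Odorant-binding proteins, small carriers secreted around sensory neurons, were higher at night in 24 of 26 tested members, beside 43.6% of all genes, with a median of 0.54. At an unadjusted p under 0.05, 7 were higher, beside 2.05% of all genes. Without ALF ZT15 the median was 0.36, with 22 of 26 higher beside 53.7%. The largest differences came from genes of the antenna. Obp83a (chromosome 3R, 1797870 to 1800967) was at 1.03, 1.16 and 0.164 FPKM by day. At night it was at 1.14, 70.2 and 36.3 FPKM in ALF and at 0.333, 11.8 and 22.4 FPKM in TRF. Its neighbour Obp83b (1801897 to 1802539) was at 0.717 FPKM or less by day and at 1.82, 77.1 and 32.1 FPKM in ALF and 0.266, 14.0 and 23.7 FPKM in TRF. Both genes stood high in ZT18 and ZT21 of each feeding type and near the day level in both ZT15 libraries.

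Obp69a and Obp19a were likewise highest in the 4 libraries of ZT18 and ZT21, and a5, another antennal gene, was listed at 0 in all day libraries and both ZT15 libraries and at 3.10 to 8.27 FPKM in the other 4. These 5 genes passed the test without both ZT15 libraries, with Obp83a at a difference of 4.33 (SE 0.31, limma adjusted p = 0.0157). Day means were 0.782 FPKM for Obp83a, 0.326 FPKM for Obp83b, 0.620 FPKM for Obp19a and 0 for a5. All but Obp69a therefore met the filter of 1 FPKM only through night libraries in which they stood high. Their calls describe those levels and lend no support, and the odorant-binding counts above include Obp83a, Obp83b and Obp19a. Over the 9 libraries Obp83a differed by 2.93 (SE 1.21, limma adjusted p = 0.897) and without ALF ZT15 by 3.78 (limma adjusted p = 0.400). The odorant co-receptor gene Orco, which marks olfactory neurons, moved beside them: it was at 6.03, 5.07 and 1.43 FPKM by day, 4.15, 21.7 and 9.46 FPKM in the ALF night libraries and 2.48, 3.83 and 6.27 FPKM in the TRF ones. The 9 antennal neuron and support cell markers, a list made after the data were seen, summed to 5.44 to 12.1 FPKM by day and 5.31 to 38.5 FPKM at night, with none at 0 in all 9 libraries. Only 2 of them averaged 1 FPKM or more, Orco and the odorant-binding protein gene lush. The sum thus reflects mainly these 2 genes, and the other markers lay near 0. At ZT12, ALF heads had 21.8 FPKM of Obp83a and TRF heads 0.731 FPKM. At week 3 it was at 94.4 FPKM in ALF heads of ZT06 and 0.724 FPKM at ZT18, the opposite order, and in TRF it reached 130.4 FPKM at ZT12. The part that antennal material in a library plays in these differences was not tested.

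**Figure D5:**
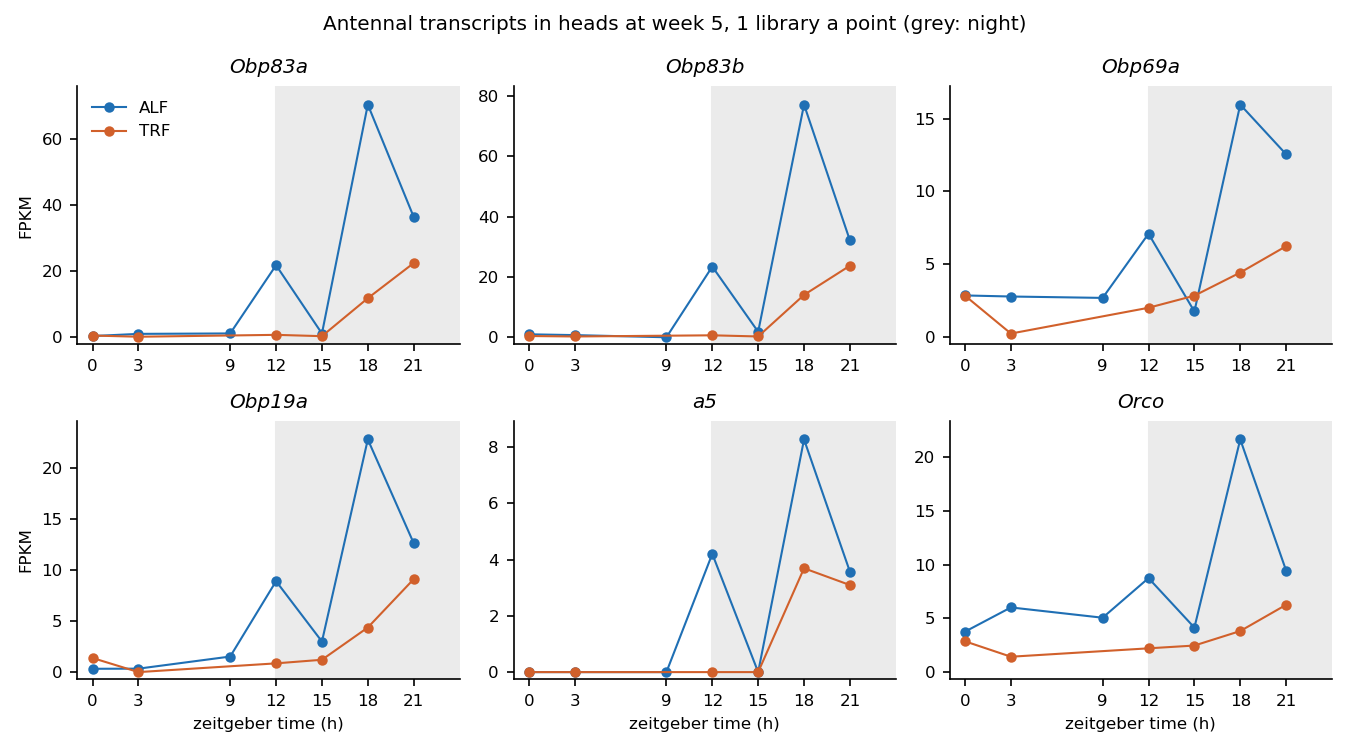
FPKM of 5 antennal carrier genes and of the co-receptor Orco against zeitgeber time in hours in the 13 head libraries with eye transcripts at week 5 (blue, ALF; orange, TRF; grey, night; 1 library a point). ALF ZT18 is the highest point in all 6 genes, at 70.2 FPKM for Obp83a and 21.7 FPKM for Orco, and the ZT15 points lie within or near the day range, the farthest being Obp19a in ALF at 2.99 FPKM against 1.52 FPKM at most by day.

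RNA of 1 fat body marker, Lsp2, also differed between libraries. This storage protein gene of the head fat body was at 65.6, 417 and 26.5 FPKM by day and at 112 to 977 FPKM at night, with ALF ZT18 the highest. The 5 fat body markers summed to 66.9 to 493 FPKM by day and 165 to 1027 FPKM at night, with none at 0 in all 9 libraries. Lsp2 made up most of that sum at night, with 977 of 1027 FPKM in ALF ZT18. The sum therefore does not show that the other fat body markers differed. Fatty acid oxidation, tyrosine breakdown and tobi are known to be active in fat body, and the part of fat body RNA in their differences was not tested. Markers of muscle summed to 514 to 600 FPKM by day and 447 to 729 FPKM at night, glia to 1110 to 1206 FPKM by day and 874 to 1258 FPKM at night, and hemocytes to 44.7 to 60.8 FPKM by day and 33.1 to 65.1 FPKM at night.

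Lists of large, steadily expressed gene groups depended on ALF ZT15. Cytosolic ribosomal proteins, whose transcripts are short, were higher at night in 84 of 86 tested members, beside 43.6% of all genes, with a median of 0.20. Without ALF ZT15, 82 of 86 were lower, beside 4590 of 9915 genes, with a median of -0.10. In 20 of the 86 every night library then lay below every day library, beside 2.64% of all genes. Respiratory complex I examples had a median of 0.26, and 0.01 without ALF ZT15. Synaptic vesicle release genes, many of them long, had a median of -0.21 with 18 of 21 lower, beside 5593 of 9918 genes. Without ALF ZT15 their median was 0.09 with 14 of 21 higher, beside 53.7% of all genes. None of these lists had a called member in either fit. Phototransduction genes had medians of -0.06 and 0.02 over the 9 libraries and without ALF ZT15. Heat shock and chaperone genes had a median of -0.04 in both fits, with 10 and 11 of 17 lower. Without both ZT15 libraries it was -0.21 with 16 of 17 lower, beside 4677 of 9914 genes. In ALF heads of weeks 3 and 7 the order was the opposite: 11 of the 17 were higher at ZT18 than at ZT06 in both ages, beside 33.7% of all genes. There, 0 were lower in both, beside 21%. The protein kinase gene inaC of the light response was at 291 to 377 FPKM by day and 219 to 256 FPKM at ZT18 and ZT21, with 394 FPKM at its night highest.

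No gene's night difference varied with feeding type past the threshold. The interaction of feeding and night, in which TRF had 1 day library, called 0 of 9918 genes (0%) by limma, with 102 at an unadjusted p under 0.05 (1.03%), and limma-voom called 0 with 98. Without ALF ZT15 it called 0 with 495, and without both ZT15 libraries 0 with 413. Among the clock genes the interaction was -0.70 (SE 1.65) for per and -2.62 (SE 2.26) for tim, so intervals of this width do not show that ALF and TRF acted alike. The levels themselves stood side by side as ALF ZT18 above ALF ZT21 and TRF ZT21 above TRF ZT18 for per, tim, vri and Pdp1.

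ALF heads of weeks 3 and 7 at ZT06 and ZT18 entered no test and served as further values, with 1 library each and ninaE at 20901 to 25776 FPKM. From ZT06 to ZT18, per went from 14.2 to 51.8 FPKM at week 3 and from 36.4 to 69.1 FPKM at week 7, and Clk from 11.1 to 2.61 FPKM and from 8.12 to 2.96 FPKM. GstZ2 went from 253 to 45.4 FPKM and from 108 to 15.9 FPKM. CG11796 went from 1078 to 255 FPKM and from 515 to 48.9 FPKM. These 4 genes kept the order seen at week 5 in both ages. Of the 10 genes of smallest p higher at night, 8 were higher at ZT18 in both ages, beside 33.7% of all genes tested, and of the 10 lower, 9 were lower in both, beside 21%. The exceptions were Obp19c and Obp28a among the higher and l(2)efl among the lower, which was at 164 and 234 FPKM at week 3 and at 219 and 235 FPKM at week 7. The enzyme yip2 went from 143 to 217 FPKM and from 185 to 215 FPKM, and tobi from 64.4 to 465 FPKM and from 6.19 to 28.9 FPKM. Of the 13 genes called without both ZT15 libraries, 7 kept their direction at week 3 and 9 at week 7, and at week 3 the 5 antennal genes were all lower at ZT18.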

How the data were processed

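The authors deposited FPKM values of 29260 RefSeq transcripts. The tools named are STAR 2.2.0c, HOMER and CASAVA 1.8.2, with build dm3, per the submitters' processing notes, which do not give their roles. Per the labels' protocols, libraries were unstranded, so overlapping genes cannot be told apart. For each of 15240 genes, 5900 of them with several transcripts, the transcript of highest mean over the 9 libraries was used, and genes averaging 1 FPKM or more there were tested. Low values were whole multiples of 1 read (100% within 0.03 reads), which gave the depths. The test was limma 3.58.1 (R 4.3.3) with trended variances on log2(FPKM + 1), feeding as covariate and Benjamini-Hochberg adjustment over all genes tested, at a threshold of 0.05. The script recovered changes put into simulated data. Their spread was capped below that of genes such as per and tim here, so this checked the code and not the power of the test. Tables and figures used python 3.11.15, numpy 2.4.6, pandas 2.3.3 and matplotlib 3.10.9.

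The libraries, the 25 gene lists and the tests were chosen with earlier results of these data known. Named genes were all members of the 2 clock lists, called genes, and, where fewer than 5 were called in a direction, the 10 protein-coding genes with the smallest unadjusted p; list examples were chosen after their values were seen. Alternatives were pseudocounts of 0.1 and 5, other filters, scalings and transcripts, no covariate, ALF alone, robust variances, limma-voom and leaving out each library. Leaving out both ZT15 libraries was added after the data were seen.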

Additional observations from a re-analysis of the deposited data

Results flagged for a closer look

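Among 70 named genes tested for a night library far from the other 5, 11 were found. Chance alone gives about 1 in 20 groups where the 6 libraries are alike. These 6 differ in time and feeding, and ALF ZT15 has the length tilt. Some of the genes were also named through the fit without the ZT15 libraries. The rate of 1 in 20 is therefore no measure for the 11. ALF ZT15, the library with the length tilt, held 6 of them: Pdf at 579 FPKM was far above the others, and Cyp18a1 at 1.95, Dh31 at 31.6, Dh44 at 14.6, Tg at 12.5 and Hsf at 11.7 FPKM were far below. TRF ZT15 held 3: Zw, the entry enzyme of the pentose phosphate pathway, at 71.0 FPKM was far above, and tobi at 17.5 and Ubpy at 22.5 FPKM were far below. The remaining ones were CG11891 at 33.0 FPKM in ALF ZT18, far below, and CG11796 at 303 FPKM in TRF ZT18, far above.

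The 3 day libraries labelled head that lack eye transcripts held seminal fluid RNA outside the comparison: Acp36DE was at 69.7 FPKM in the lowest of them, TRF ZT06, beside at most 0.059 FPKM in the 9 libraries compared.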

How the results depend on the processing

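Over the 9 libraries the count of called genes stayed at 0 under each alternative tried, leaving out any library included (0 to 0), except that leaving out both ZT15 libraries gave 13. From that fit, the count was 21 with a pseudocount of 0.1, 1 with 5, 4 with no filter, 21 with a mean of at least 5 FPKM, 7 after rescaling by the median of ratios, 5 after quantile normalization, 0 with ALF alone and 26 by limma-voom; leaving out each library gave 0 to 66. The interaction count stayed at 0 under its 3 alternatives. For single genes, the difference changed sign for Pdf (-0.207 without ALF ZT15, -0.257 without both ZT15 libraries; -0.207 to 0.369 on leaving out each library), to (-0.0119 by limma-voom; -0.257 to 0.866), cwo (-0.0768 to 0.399), Cyp4d21 (-0.167 to 1.11), Cyp18a1 (-0.0734 with ALF alone; -0.0734 to 0.611) and Zw (-0.111 with ALF alone; -0.111 to 0.706); the causes were not tested. The other 1794 recomputed values for named genes kept their direction and side of the threshold, while 124 kept direction but lost a call and 18 gained one. Leaving out both ZT15 libraries was chosen after seeing the data. No paired analysis was possible because the labels give no replicate numbers and each time and feeding type has 1 library. Depth limits ALF ZT09 and ALF ZT15 most, at 2.06 and 2.10 M reads, and the 1 TRF day library limits any statement on feeding.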

Other observations

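Among neuropeptide and vision genes not described above, CCHa2, a nutrient-responsive peptide gene, was at 22.4 to 153 FPKM by day and 56.7 to 160 FPKM at night, a difference of 1.37 over the 9 libraries and 1.31 without ALF ZT15, and in ALF heads it differed by 1.88 at week 3 and 1.41 at week 7. Ilp5, an insulin-like peptide gene, was at 6.36 to 8.19 FPKM by day and 9.14 to 59.3 FPKM at night with no overlap, and its highest night value without the ZT15 libraries was 13.5 FPKM. Rh5, a rhodopsin of inner photoreceptors, was at 265 to 294 FPKM by day and 302 to 650 FPKM at night with no overlap, and at 316 to 409 FPKM at ZT18 and ZT21. None of the 3 passed the test by limma over the 9 libraries. They were chosen after their values were seen.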
